A study of Mus musculus with 10 samples.

Results

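REST binding in the cortex of WT and 3xTg mice was examined at 10 genes for two-pore potassium channels, out of 14 Kcnk genes and 26089 genes in all in the curated RefSeq annotation. The members were chosen by measured values: peaks of the lists described here, the strong peak near Kcnk9 among them, were known when the genes were picked, so their peaks are given as a description with no test. A gene was counted as having a peak where a REST peak overlapped its body or lay within 25 kb of one of its start sites, a limit set with the distance of the Kcnk9 peak known. REST ChIP-seq was measured in whole cortex of female mice aged 11 months, with 4 replicates of WT and 4 of 3xTg; every replicate pooled 4 cortices, and each genotype had 1 input library. The 3xTg mice carry APPSwe and tauP301L transgenes and a PS1 knock-in on a mixed background of C57BL/6J and another inbred strain, and the WT mice were littermates without them. The antibody was raised against the C-terminal region of REST. The cortex is a mixture of neurons, glia and vascular cells, so that more binding per cell and more cells with binding cannot be told apart, and a peak list holds no marker levels by which the tissue could be checked.

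Two-pore potassium channels carry the leak current that holds the resting membrane potential of neurons and glia near the potassium equilibrium potential. Each subunit has a pair of pore-forming loops, and the channels work as dimers. The groups of the family include TWIK, TREK, TASK, TALK and THIK, which differ in their response to stretch, lipids, acid and volatile anaesthetics. REST is a zinc-finger repressor that binds a long DNA element, RE1, at many genes of neuronal function, ion channels among them, and recruits corepressors there.

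For each genotype there was 1 list of peaks that combined the 4 replicates, so no value of a peak had a replicate spread. The lists held 3006 peaks in WT and 5077 in 3xTg after peaks on chromosome Y were left out. Each peak had a fold enrichment, the ratio of its read pileup to the local background, and peaks were ranked by it within their list, with rank 1 the highest. The lists did not reach equally low. The lowest fold enrichment was 6.0 in WT and 8.50 in 3xTg, although 1 filter is stated for both, and 2056 of the WT peaks (68.4%) were under the lowest 3xTg value. The files gave no read totals, and the study's library summary lists more mapped reads in total for 3xTg than for WT. The part of depth in the counts below was not tested.

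Kcnk9, Kcnk1 and Kcnk12 had a REST peak in both genotypes, and Kcnk4, Kcnk10 and Kcnk13 had one in the 3xTg list and none in the WT list. No peak in either list met the rule at Kcnk2, Kcnk3, Kcnk5 or Kcnk15. Thus 3 of 10 members had a WT peak, where 14.6% of all genes did (3817 of 26089). In 3xTg, 6 of 10 members had a peak, against 21.7% of all genes (5665). A peak in both lists was found at 3 members and at 12.5% of all genes, and a 3xTg peak without a WT peak at 3 members and at 9.19% of all genes. No member had a WT peak without a 3xTg peak, as 550 genes did. Nothing is read from these shares, since the members were picked with the peaks known. The median length of the members was 41219 bases against 13498 for all genes, with Kcnk4 (8854) and Kcnk15 (5125) below the latter, and a longer body leaves more room for an overlap.

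**Figure D1:**
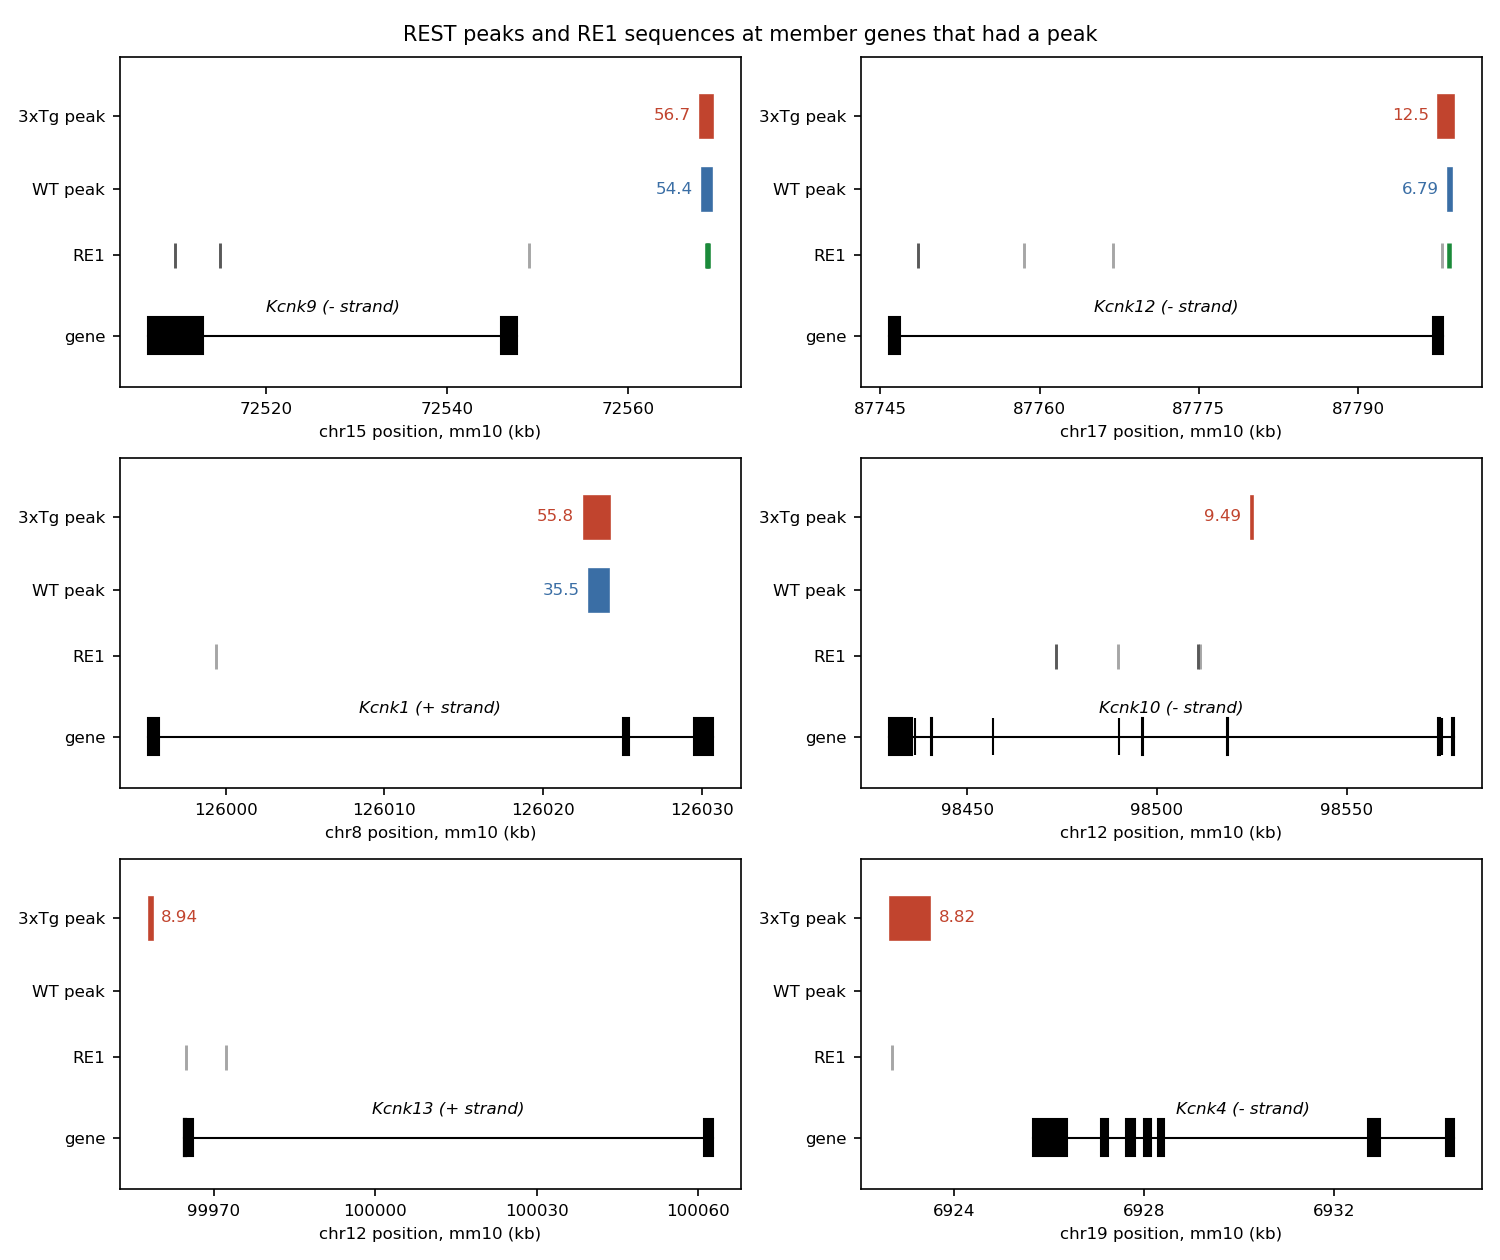
Maps of the 6 members with a peak, to scale, with exons as black boxes, WT peaks in blue, 3xTg peaks in red and the fold enrichment beside each peak, against position on mm10 in kb. Vertical marks are RE1 matches with at most 3 mismatches (green), 4 (dark grey) or 5 (light grey), and the green marks lie under peaks of both genotypes at Kcnk9 and Kcnk12.

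Kcnk9 encodes TASK-3, an acid-sensitive leak channel of neurons that is expressed from the maternal allele in brain. Its peak was the strongest of the members in both lists. In WT it spanned chr15:72568036-72569237 with a fold enrichment of 54.4 and a −log10 q of 417.4, and ranked 3 of 3006. In 3xTg it spanned chr15:72567845-72569313 with a fold enrichment of 56.7 and a −log10 q of 481.1, and ranked 12 of 5077. The peak lay upstream of the gene, which runs on the minus strand from 72547699 to 72506986 (mm10). Its nearest edge was 20337 bases from the start site in WT and 20146 bases in 3xTg, and these were the member peaks closest to the 25 kb limit from inside, apart from those counted through the gene body. No gene body of the curated annotation covered the summit. In the curated annotation the next start site after that of Kcnk9 was that of Peg13, 241087 bases from the WT peak. With predicted transcripts added it was that of Gm24390, at 77017 bases. In GENCODE M21 the start of Gm49460, at 19046 bases, was nearer than that of Kcnk9, at 21696 bases.

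The sequence under the Kcnk9 summit held 4 matches to RE1 on the plus strand within 147 bases, counted as stretches of 20 bases with at most 5 mismatches to the consensus. From left to right they had 5, 1, 3 and 5 mismatches, with 28, 10 and 29 bases between neighbours. The centre of the match with 1 mismatch was 9 bases from the WT summit and 7 bases from the 3xTg summit. Only 46 sequences on the autosomes and chromosome X came within 1 mismatch of the consensus, of which 10 were under WT peaks and 13 under 3xTg peaks. Peaks with 4 or more matches were rare: 11 of the WT peaks (0.366%) and 12 of the 3xTg peaks (0.236%) had them. The cluster is shown because it lies at the summit of the strongest member peak. It is the plus strand of mm10 chr15:72568647-72568813, with the 4 matches in capitals.
Kcnk9 RE1 cluster: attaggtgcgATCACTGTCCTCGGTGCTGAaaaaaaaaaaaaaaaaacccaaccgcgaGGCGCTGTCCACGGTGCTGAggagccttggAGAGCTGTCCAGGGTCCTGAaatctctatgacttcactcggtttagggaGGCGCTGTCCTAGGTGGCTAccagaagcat

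The other TASK genes had no peak. Kcnk3 encodes TASK-1, an acid-sensitive channel known from arterial muscle and chemoreceptor cells, and the nearest peak was 186719 bases from its start site in WT and 186606 bases in 3xTg. Its window, the gene body with 25 kb around the start site, was the only 1 of 10 without an RE1 match of at most 5 mismatches. Kcnk15 encodes TASK-5, which gives no current when expressed alone. The nearest peaks to its start site were at 177945 bases in WT and 60063 bases in 3xTg, and 1 match with 5 mismatches in its window was under no peak.

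Kcnk1 encodes TWIK-1, a weakly rectifying leak channel found in neurons and astrocytes. It had the second strongest member peak, in intron 1 of 2. In WT the peak spanned chr8:126022812-126024148 with a fold enrichment of 35.5 and a −log10 q of 227.0, and ranked 29. In 3xTg it spanned chr8:126022479-126024234 with a fold enrichment of 55.8 and a −log10 q of 453.5, and ranked 15. The summits were 8 bases apart. The peak was 27710 bases from the start site in WT and 27377 bases in 3xTg, outside the 25 kb limit, and was counted through the gene body, which runs on the plus strand from 125995102 to 126030685.

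No RE1 match was found under the Kcnk1 peak, where the closest stretch had 8 mismatches. The sequence there was a tandem repeat. The 10-base word ACTAGTCCTA occurred 29 times in each peak, over 743 bases from 126023111 to 126023853, with a median spacing of 21 bases. In the 300 bases around the summit, 67.6% of bases in WT and 65.6% in 3xTg equalled the base 1 period earlier at the best period, where the median over all peaks was 33.5% in each list. By a limit of 60%, chosen after these values were seen, 138 of the WT peaks (4.59%) and 203 of the 3xTg peaks (4.00%) were repeats, against 1.13% and 1.16% of windows 10 kb downstream. Among the 100 strongest peaks, 21 in WT and 25 in 3xTg were repeats, so that Kcnk1 was in company at this end of both lists. Of all 75-base words in the Kcnk1 peak, 97.6% in WT and 98.2% in 3xTg occurred once in the genome and the others at most 2 times. Whether the repeat bears on the peak height was not tested. The 150 bases around the 3xTg summit are shown for the repeat, from the plus strand of mm10 chr8:126023424-126023573, with the word in capitals.
Kcnk1 summit: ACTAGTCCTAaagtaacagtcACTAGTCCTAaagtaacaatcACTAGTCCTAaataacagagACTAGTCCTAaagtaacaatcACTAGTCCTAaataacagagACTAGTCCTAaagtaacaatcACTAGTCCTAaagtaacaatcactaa

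Kcnk12 encodes THIK-2, a channel largely kept in the endoplasmic reticulum, and was the only member with a peak within 1 kb of its own start site. In WT its peak spanned chr17:87798397-87798884 with a fold enrichment of 6.79 and a −log10 q of 17.2, and ranked 1969, with its edge 403 bases upstream of the start site at 87797994. In 3xTg the peak spanned chr17:87797492-87799027, over the start site, with a fold enrichment of 12.5 and a −log10 q of 53.9, and ranked 1708. It was 1536 bases wide in 3xTg against 488 bases in WT, and the summits were 74 bases apart. Both peaks were GC-rich (65.6% in WT and 65.3% in 3xTg, where the median peak had 48.4% and 46.8%).

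An RE1 match with 3 mismatches lay on the minus strand, the strand of Kcnk12, between its summits. The WT summit was 44 bases to 1 side of its centre and the 3xTg summit 30 bases to the other. In 3xTg the wider peak also took in a match with 5 mismatches at 87797899.

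Kcnk13 encodes THIK-1, the main background potassium channel of microglia. Its peak, in 3xTg alone, spanned chr12:99957840-99958717, 5782 bases upstream of the start site, with a fold enrichment of 8.94 and rank 4479. The closest RE1 stretch in it had 8 mismatches, and 2 matches with 5 mismatches in the Kcnk13 window were under no peak. In WT the nearest peak was 145417 bases from the start site.

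Of the stretch- and lipid-gated channels, the TREK group, Kcnk10 and Kcnk4 had a peak in 3xTg alone. The peak at Kcnk10, which encodes TREK-2, spanned chr12:98524438-98525259 in intron 1, with a fold enrichment of 9.49 and rank 3669. It was 49453 bases from the nearest Kcnk10 start site of the curated annotation, or 6803 bases from the nearest in GENCODE M21, and 594 bases from the start of Gm40893 in both, whose body also covered the summit. No RE1 match was under it, and its closest stretch had 6 mismatches. In the Kcnk10 window, 2 matches with 4 mismatches and 2 with 5 lay under no peak.

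The peak at Kcnk4, which encodes TRAAK, a channel of the nodes of Ranvier, spanned chr19:6922630-6923502 with a fold enrichment of 8.82 and rank 4563. It was 11013 bases from the Kcnk4 start site, past the other end of the gene. Its summit was in the body of Catsperz, a sperm calcium channel subunit gene, and the nearest start site, at 822 bases, was that of Esrra, which encodes the estrogen-related receptor alpha. A minus-strand RE1 match with 5 mismatches lay in the peak, 258 bases from the summit. The next peaks, at 41061 bases in WT and 40786 bases in 3xTg, were the closest to the 25 kb limit from outside among the members, apart from the Kcnk1 peak counted through the gene body. They had a fold enrichment of 9.78 (rank 633) and 14.6 (rank 1129).

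Kcnk2 encodes TREK-1, which responds to stretch, heat and polyunsaturated fatty acids, and had no peak in a body of 194344 bases, the longest of the members, or near any of its 4 start sites. The nearest peak was 1994621 bases away in WT and 327651 bases in 3xTg, and its 2 RE1 matches, each with 5 mismatches, were under no peak. Kcnk5 encodes TASK-2, an alkali-activated channel of the TALK group known from kidney and brainstem chemoreception. It had no peak either, and the nearest were 112563 and 112441 bases from its start site in WT and 3xTg.

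The 3 peaks found in 3xTg alone were close to the lower end of that list, at 8.82 to 9.49 where the list ends at 8.50. Among the 2588 3xTg peaks with no overlapping WT peak, the median fold enrichment was 9.67, and 16.5%, 18.9% and 40.9% were below the peaks at Kcnk4, Kcnk13 and Kcnk10. The 2489 3xTg peaks shared with WT had a median of 13.8. When the 3xTg list was held to as many of its strongest peaks as the WT list has, none of these 3 was left and 3 of 10 members had a peak in each genotype. At a fold enrichment over 10 in both lists, 2 members remained in WT (Kcnk9 and Kcnk1) and 3 in 3xTg (with Kcnk12).

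**Figure D2:**
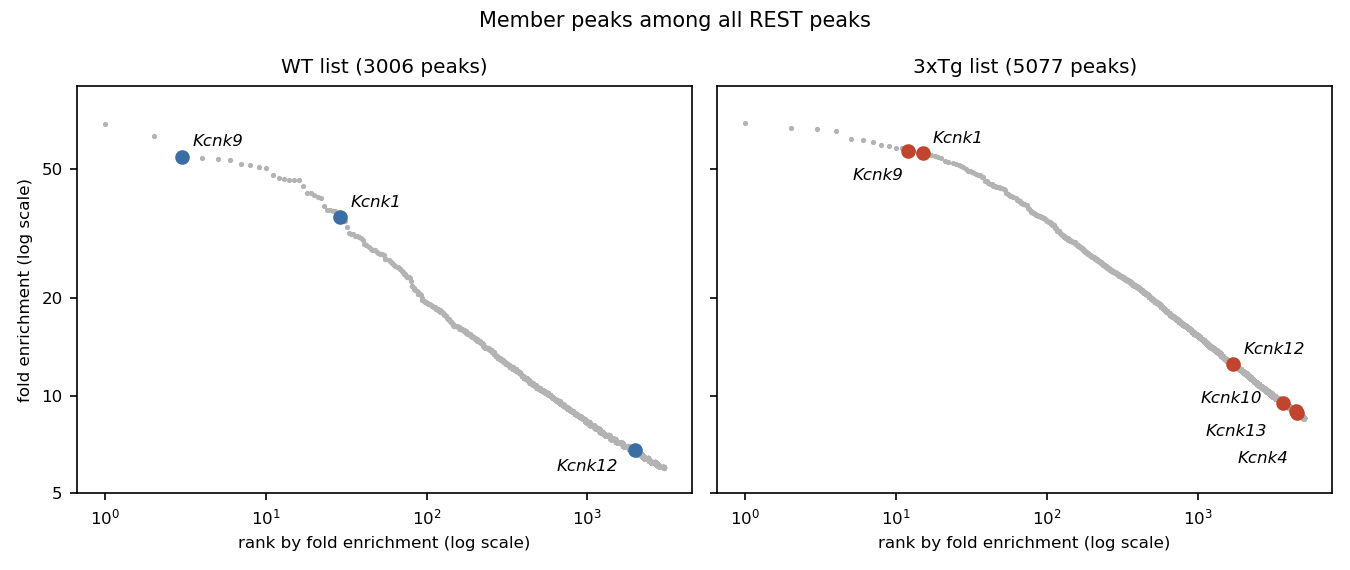
Fold enrichment of every peak against its rank in WT (left, 3006 peaks) and 3xTg (right, 5077 peaks), both axes on a log scale, with member peaks in colour. Kcnk9 and Kcnk1 are within the first 29 ranks of both lists, and Kcnk4, Kcnk10 and Kcnk13 are at ranks 3669 to 4563 of the 3xTg list.

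All 3 WT member peaks were shared with 3xTg, where 83.3% of all WT peaks were, and 3 of 6 3xTg member peaks were shared with WT, where 49.0% of all 3xTg peaks were. Across 2504 shared pairs of peaks, the log2 ratio of 3xTg to WT fold enrichment had a median of 0.77 (interquartile range 0.58 to 0.96), so that the members are set beside that shift. It was 0.06 at Kcnk9, with 18 pairs (0.719%) lower, 0.65 at Kcnk1, with 34.9% lower, and 0.88 at Kcnk12, with 64.4% lower. Strong pairs had smaller ratios: over the 64 pairs with a WT fold enrichment over 25 the median was 0.41, and 7 of them were below Kcnk9 and 47 below Kcnk1. These ratios set values of 2 separately scaled lists side by side and were not tested. By fold enrichment in both lists, the peaks within 1 kb of a start site most like that of Kcnk9 were at Npas4, an activity-induced transcription factor gene (53.7 in WT and 55.8 in 3xTg), Tle1, a corepressor gene (53.1 and 66.5), and Vstm2l (46.3 and 56.6). Their Euclidean distances from the Kcnk9 pair on the log2 scale were 0.029, 0.232 and 0.234, over the 2 lists.

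**Figure D3:**
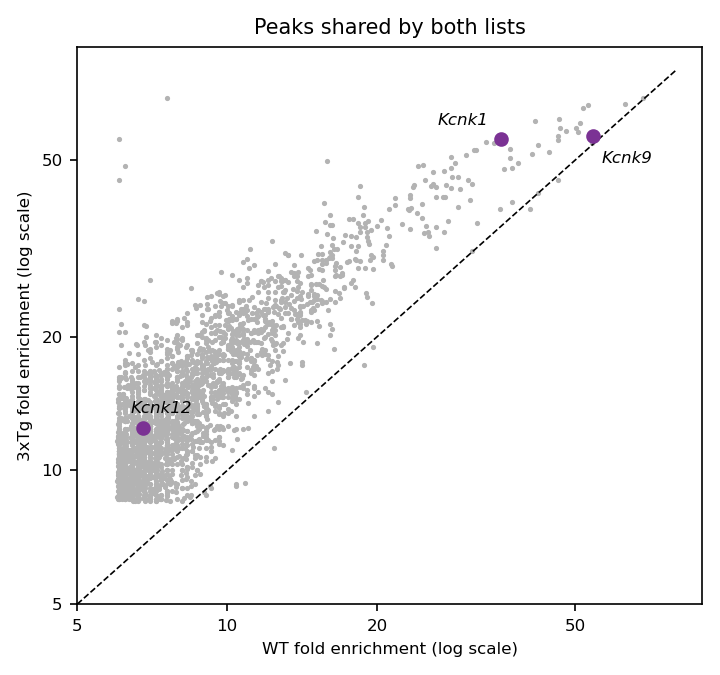
Fold enrichment in 3xTg against WT for the 2504 shared pairs of peaks, both axes on a log scale, with the dashed line at equal values and the 3 shared member peaks in purple. Kcnk9 lies near the line (log2 ratio 0.06), and Kcnk1 (0.65) and Kcnk12 (0.88) lie above it.

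RE1 matches were found in 2 of 3 WT member peaks, where 7.09% of all WT peaks had one (213), and in 3 of 6 3xTg member peaks, where 6.09% of all 3xTg peaks did (309). Windows of the same width 10 kb downstream had one in 1.56% and 2.19% of cases. The windows of the 10 members together held 24 matches. All 3 with at most 3 mismatches, 2 at Kcnk9 and 1 at Kcnk12, were under peaks of both lists, where 12.3% of the 1214 such sequences in the genome were under a WT peak and 14.4% under a 3xTg peak. None of the 5 with 4 mismatches was under a peak, where 1.29% of such sequences in the genome were under a WT peak and 1.52% under a 3xTg peak. Of the 16 with 5 mismatches, 2 were under a WT peak and 4 under a 3xTg peak, against 0.250% and 0.453% in the genome. The 2 at Kcnk9 and both matches with 5 mismatches under a WT peak lie in the same cluster, so they are not separate cases. Nothing is read from the member shares, since the members were picked with the peaks known. A match is a description of the letters and not of binding.

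RefSeq promoters, from 250 bases before to 50 bases after a start site, were listed for 8 of 10 members, all but Kcnk3 and Kcnk9. None of their 12 promoters held an RE1 match, as 0.960% of the 32619 promoters of mm10 did. Their GC content ran from 43.0% at a start site of Kcnk2 to 74.7% at another of that gene, around the median of 53.0% for all promoters.

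The other 4 two-pore genes were set beside the members by the same rule. Kcnk6 and Kcnk18 had no peak. Kcnk7, a TWIK-like gene, had a 3xTg peak at 14432 bases with a fold enrichment of 11.3 (rank 2258) that lay over start sites of Map3k11 and Pcnx3. The TALK-1 gene Kcnk16 had a 3xTg peak at 24954 bases with a fold enrichment of 12.3 (rank 1792), over the start of Nudt13, just inside the limit. The WT peak at the same place, with a fold enrichment of 6.62, was 25076 bases away and just outside it.

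Among 21 partners and regulators of two-pore channels, 9 had a WT peak (42.9%), 11 a 3xTg peak (52.4%) and 8 both. Of all genes, 14.6% had a WT peak, 21.7% a 3xTg peak and 12.5% both. The median length of the 21 genes was 29146 bases against 13498 for all genes, and nothing is read from these shares. The highest fold enrichment was at Ywhaz, a 14-3-3 gene whose products bring TASK channels to the cell surface (9.83 in WT and 19.8 in 3xTg). In WT the next were Gnaq, a G protein gene that acts on TASK and TREK channels (8.32), the microtubule scaffold gene Map2 (8.13), Stx8 (7.94), the GABA receptor gene Gabbr2 (7.92), Psd, an Arf6 exchange factor gene linked to TWIK-1 trafficking (7.84), the lipase gene Pld2 (7.33) and the sortilin gene Sort1 (7.0). In 3xTg they were Psd (17.2), Gabbr2 (15.9), Map2 (13.1), Stx8 (12.4), Gnaq (11.0), Chrm1, a muscarinic receptor gene (9.49), and Gabbr1 (9.01). None of these peaks had an RE1 match. In WT the peak at Pld2 was 21668 bases from its start site and nearer to that of Mink1, at 376 bases. Those at Gabbr2 and Stx8 lay in the gene body, 221428 and 210336 bases from the start site in WT. The peak at Gnaq was nearest to the start of Gm53055, and that at Psd lay over its own start site.

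Of 80 other protein-coding genes with a symbol that starts with Kcn, 19 had a WT peak (23.8%), 25 a 3xTg peak (31.2%) and 18 both. Of all genes, 14.6% had a WT peak and 21.7% a 3xTg peak. Among the strongest in WT were those at Kcnip1 (13.4), Kcnh2 (12.1), Kcnab1 (9.64), Kcnh1 (9.27) and Kcnb2 (9.08). In 3xTg they included Kcnip1 (28.0), Kcnh1 (16.9), Kcnip4 (16.4), Kcnh6 (15.6) and Kcnj10 and Kcnq3 (each 15.0). The peak at Kcnh2 had an RE1 match, with 4 mismatches, and the others named did not. Those at Kcnh1 and Kcnb2 lay in the gene body, 230409 and 196644 bases from the start site in WT. In 3xTg the peak at Kcnj10 was nearest to the start of Pigm, at 10840 bases. That at Kcnip1 was nearest to the start of Kcnmb1, and that at Kcnh6 lay over its own start site. Every one of the values named was under the fold enrichment of the peaks at Kcnk9 and Kcnk1 in the same list. Every one was also above that of Kcnk12 in the same list (6.79 in WT and 12.5 in 3xTg). In 3xTg all were above Kcnk4, Kcnk13 and Kcnk10 (8.82 to 9.49). Nothing is read from this order, since the members were picked with their peaks known.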

How the data were processed

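REST ChIP-seq reads (75 bases) from 4 WT and 4 3xTg replicates and 1 input each were aligned to mm10 by the authors. Their methods name STAR 2.7.0a, and the submitters' processing notes name BWA for replicates 1 and 2 and the inputs. The authors called peaks with MACS, removed blacklisted ones and deposited 1 list per genotype. Each deposited peak has a score (10 times the −log10 of its q-value, rounded down), a fold enrichment (a ratio to the local background), the −log10 of the q-value and a summit offset. The authors state that peaks had to pass a fold enrichment of 5 and a q-value of 0.01, and all 3006 and 5077 peaks used here did.

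The members and lists were chosen with earlier results of these data known. Peaks on chromosome Y (4 in WT, 9 in 3xTg) were left out because all mice were female. Curated RefSeq transcripts of GRCm38 on the autosomes and chromosome X gave gene bodies and start sites. Peaks were shared where they overlapped by 1 base. RE1, of 20 bases, was searched on both strands with up to 5 mismatches, and the search recovered 700 of 700 sites planted in random sequence. Named genes were the members, the gene nearest to each member peak, up to 8 genes per list by fold enrichment (some of them are not reported here), and the 3 peaks most like that of Kcnk9. The repeat measure took the highest share of bases equal to the base 1 period earlier over periods of 8 to 100. Depth per library was not in the files. No test was made. Python 3.11.15, numpy 2.4.6, pandas 2.3.3 and matplotlib 3.10.9 were used.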

Additional observations from a re-analysis of the deposited data

How the results depend on the processing

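The counts of members and shared or RE1-bearing peaks, and the rank of the strongest member peak, were recomputed with other limits on distance (5, 10 and 50 kb), without the gene body, with stricter limits on fold enrichment (over 10) and q (under 1e-05), with the summit in place of the peak, with predicted transcripts or GENCODE M21, with equal list lengths, and with other limits on overlap and mismatches. Of 45 alternative values, 41 were within 1.5 times the main value. That limit still lets in a change from 3 to 2 or from 6 to 4, and several of the 41 did change. Without the gene body, 2 members had a WT peak and 4 a 3xTg peak. When shared peaks had to cover 50% of each other, 2 member peaks were shared in each list in place of 3. RE1-bearing 3xTg member peaks went from 3 to 2 with at most 4 mismatches or in the 200 bases around the summit. They went to 4 with at most 6 mismatches, and those of WT stayed at 2 throughout. Members with a 3xTg peak fell from 6 to 3 with start sites within 5 kb, with fold enrichment over 10, and with as many 3xTg peaks as WT peaks; in each case fewer peaks or a smaller window were used by construction. The rank of the strongest member peak in WT, that of Kcnk9, went from 3 to 6 when peaks were ranked by −log10 q. At both 5 and 10 kb Kcnk9 dropped out of both lists, and members with a WT peak went from 3 to 2. With WT held to the lowest fold enrichment of the 3xTg list, an alternative chosen after seeing the data, 2 members had a WT peak. At 50 kb the peaks near Kcnk4 in both lists came within the limit, and 4 members had a peak in both. No paired analysis was possible because each list pools the replicates, and for the same reason leaving out a replicate could not be run. A member without a peak in these lists had none above their lower ends, and is not shown to be unbound.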

Other observations

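Several other strong REST peaks had the features seen at the members. WT peaks with 4 or more RE1 matches are given here by the gene whose start site was nearest to the peak. They included Npas4 (5 matches, a fold enrichment of 53.7 and a distance of 0 bases) and Erich1 (4, 54.1 and 17085 bases). Others were Igsf21 (4, 51.3 and 11749 bases), Vstm2l (4, 46.3 and 142 bases) and Smim17 (5, 40.6 and 4366 bases). These were picked after their values were seen.

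Tandem repeats with no RE1 match lay under a peak whose nearest start site was that of Utp4, 19974 bases away in WT. That peak ranked 2 in both lists (fold enrichment 63.0 in WT and 67.0 in 3xTg, best period 21 bases). Another lay under a peak whose nearest start site was that of Slc38a9, 46448 bases away in WT (50.2 and 59.0, best period 19 bases). At the Utp4 peak 84.9% of bases in WT equalled the base 1 period earlier.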
